A study of Mus musculus with 6 samples.

Results

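The 10 genes Tcf7, Lef1, Bach2, Satb1, Foxo1, Foxp1, Id3, Ets1, Ikzf1 and Bcl11b, which encode transcription factors of naive and quiescent T cells, were followed in RNA from splenic CD8+ T cells of mice on 2 diets. They were chosen by name, with earlier results of these data known, so counts of them beside shares of all genes are descriptions. They were found by gene identifier among the 19323 genes of the deposited table, and all 10 passed the filter on low values. Mice received MCDHFD or, for comparison, ND for 7 weeks, and there were 3 libraries per diet. The mice were C57BL/6, labelled WT, and were 6 weeks old when the diets began. The diets belong to a study of MASH, the inflamed form of fatty liver disease. The labels do not say whether a library came from 1 animal or several, so the p-values speak for the spread between these 6 libraries, which may be technical. The sources used here do not give the method of isolating the CD8+ cells.

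Naive T cells circulate in a resting state that is actively maintained. TCF1 (the product of Tcf7) and LEF1 bind DNA through an HMG box and keep open the genes of naive and long-lived T cells. FOXO1 drives the receptors that keep naive cells in lymphoid organs and alive, and it is expelled from the nucleus when AKT or SGK1 phosphorylates it. BACH2, FOXP1 and IKAROS (Ikzf1) repress activation and effector genes, while ID3 binds E proteins and holds them off DNA. BCL11B and SATB1 guard T cell identity and chromatin structure, and ETS1 acts at many lymphocyte enhancers. As background, Tcf7, Lef1, Bcl11b and Satb1 are mainly T lineage genes in the adult spleen, whereas B cells also use Foxo1, Foxp1, Bach2, Ets1 and Ikzf1.

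Libraries held 14119816 to 14752121 normalized counts, that is, read counts that the authors scaled to make libraries comparable. The defining markers of CD8 T cells were present throughout, and no gene of any marker list was at 0 in all libraries of a diet. All 20 genes of a CD8 T cell identity list were lower in MCDHFD (median log2 fold change -1.02), and their summed share of counts was 0.401% to 0.449% in MCDHFD libraries and 0.864% to 0.874% in ND libraries. Macrophage genes were higher in 23 of 24 (2.90% to 3.51% in MCDHFD, 0.599% to 0.728% in ND), erythroid genes in 20 of 20 (0.133% to 0.209% in MCDHFD, 0.0305% to 0.0324% in ND) and neutrophil genes in 14 of 16 (0.0874% to 0.145% in MCDHFD, 0.0133% to 0.0184% in ND). Plasma cell genes were higher in 6 of 10 tested (0.0819% to 0.124% in MCDHFD, 0.0368% to 0.0379% in ND). B cell genes were lower in 14 of 16 and higher in 1, with a median log2 fold change of -1.89 (0.127% to 0.145% in MCDHFD, 0.155% to 0.171% in ND). Dendritic cell genes were lower in 14 of 19 and higher in 3, with a median of -1.48 (0.298% to 0.304% in MCDHFD, 0.5003% to 0.533% in ND). NK cell genes were lower in 6 of 7 tested (0.0145% to 0.0156% in MCDHFD, 0.0337% to 0.0353% in ND), and CD4 and regulatory T cell genes in 7 of 10 (0.0223% to 0.0228% in MCDHFD, 0.0378% to 0.0401% in ND). Ccr7 of the dendritic cell list is also in the naive surface programme reported below, and Eomes of the NK cell list is also a factor of memory CD8 T cells. The counts and shares of those lists are therefore not specific to dendritic and NK cells. With the T cell identity genes held equal, the macrophage, erythroid, neutrophil and plasma cell genes tested were higher in 24 of 24, 20 of 20, 16 of 16 and 10 of 10, where 83.9% of all tested genes were higher. On the same scale 11 of 16 B cell genes were lower and 2 higher, 11 of 19 dendritic cell genes lower and 7 higher, 3 of 7 NK cell genes lower and 1 higher, and 3 of 10 CD4 and regulatory T cell genes lower and 3 higher. The part of these shifts in the results below was not tested, and in bulk RNA fewer cells of a type and less RNA per cell cannot be told apart. Each factor is therefore given on 2 scales, the deposited one and one relative to the 20 T cell identity genes of the same library.

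On the deposited scale 7 of the 10 factors were lower in MCDHFD, none was higher and 3 missed the threshold (limma, adjusted p under 0.05), where 28.1% of the 13430 tested genes were lower, 30.3% higher and 58.4% one or the other. The lower factors were Tcf7, Lef1, Bcl11b, Satb1, Ets1, Foxo1 and Bach2, and the same 7 had groups that did not overlap, against 32.3% of all tested genes with non-overlapping lower values and 33.2% with non-overlapping higher ones. Relative to the T cell identity genes no factor was lower and 7 were higher, namely Tcf7, Lef1, Satb1, Ets1, Ikzf1, Foxp1 and Id3. On that scale 83.9% of the tested genes were higher and 3.25% lower (87.1% in all), so a rise there is the common outcome and not particular to the factors. The median of all tested genes there was 1.04, and 9 of the 10 factors lay below it. The p-values on that scale, here and below, are against 0 and not against that median. With the 4 genes of the CD3 complex held equal in place of the identity list, 7 factors were higher and none lower, against 82.2% of all tested genes higher and 3.6% lower (85.8% in all). These 4 genes belong to the identity list and were all lower on the deposited scale, so that scaling is not independent of the first. The median log2 fold change of the 10 factors was -0.51 on the deposited scale, against 0.00 (0.0038 before rounding) for all tested genes and -1.02 for the T cell identity genes. None of the 10 was lower by 2-fold or more, while 7.66% of all tested genes were.

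**Figure D1:**
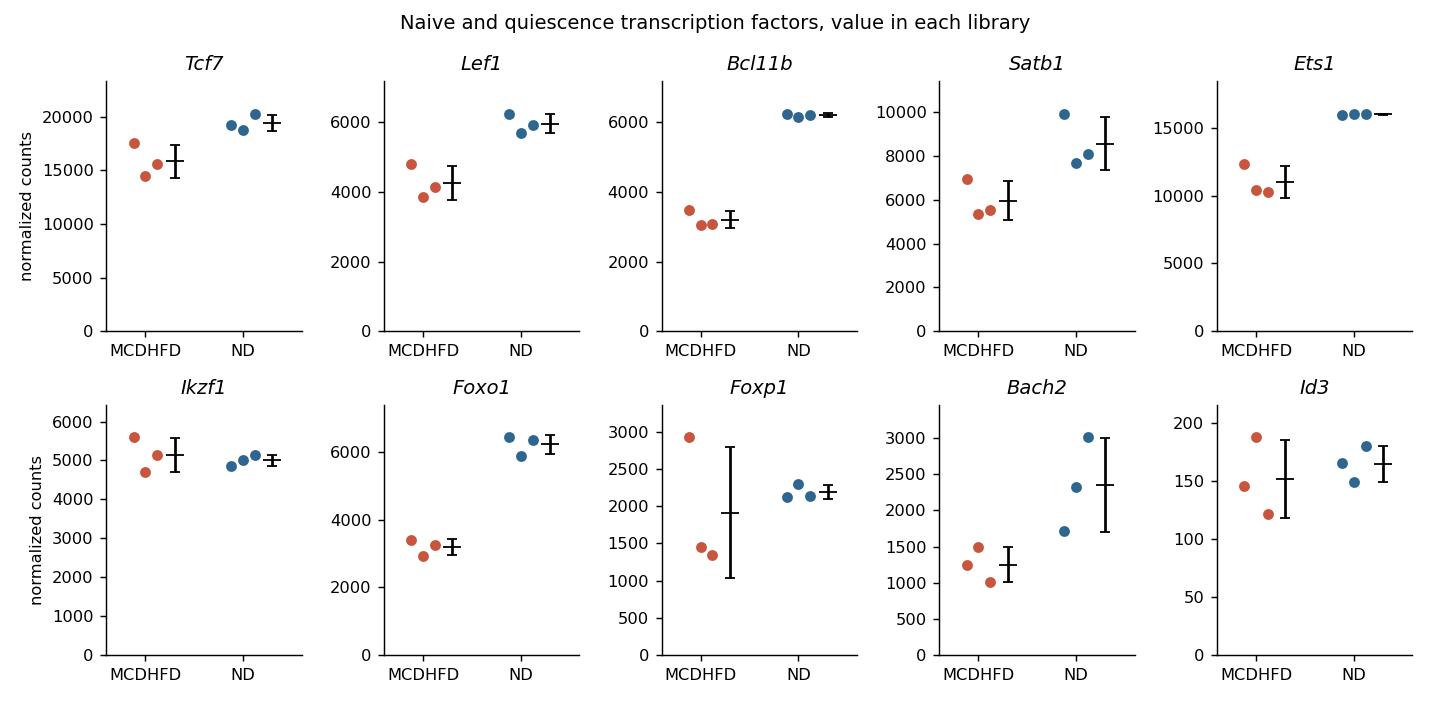
Normalized counts of the 10 factors in each library (points), with the mean and SD of each diet beside them, MCDHFD in red and ND in blue; every vertical axis starts at 0. The diets separate for 7 factors, with Bcl11b at a mean of 3201 in MCDHFD and 6198 in ND and Foxo1 at 3202 in MCDHFD and 6223 in ND, and overlap for Ikzf1, Id3 and Foxp1.

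The HMG box pair Tcf7 and Lef1 were modestly lower on the deposited scale and higher relative to the T cell identity genes. Both rises on the second scale were below the 1.04 of the median tested gene. Tcf7 (ENSMUSG00000000782, chromosome 11, 52252371 to 52283014, minus strand in mm10) had 17515, 14421 and 15564 normalized counts in MCDHFD libraries, against 19228, 18755 and 20277 in ND libraries. Every MCDHFD library was below every ND library, by a margin that was small beside the level. Tcf7 averaged 15833 ± 1565 in MCDHFD and 19420.1 ± 779 in ND (SD, n = 3 each), a log2 change of -0.30 (SE 0.08, limma adjusted p = 0.00858). All 20 T cell identity genes had a lower fold change than Tcf7. Relative to those genes, Tcf7 was higher in MCDHFD by 0.74 on the log2 scale (SE 0.06, limma adjusted p = 1.52e-06), and its groups did not overlap on that scale either.

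Lef1 (ENSMUSG00000027985, chromosome 3, 131110471 to 131224356, plus strand), the partner of TCF1 with a partly shared role, had 4802, 3839 and 4137 normalized counts in MCDHFD libraries, against 6245, 5702 and 5928 in ND libraries. The groups were again apart, with MCDHFD replicate 1 the nearest to ND. The log2 fold change was -0.49 (SE 0.08, limma adjusted p = 0.000872), and relative to the T cell identity genes Lef1 was higher by 0.55 (SE 0.06, limma adjusted p = 2.54e-05). The log2 ratio of Tcf7 to Lef1 within a library, which division of a library by 1 factor leaves unchanged apart from the added 1, was 1.90 ± 0.03 in MCDHFD and 1.70 ± 0.08 in ND (SD, n = 3 each). That ratio was higher in each MCDHFD library than in each ND library, a difference of 0.19 with a two-sided exact permutation p = 0.1, the smallest that 3 against 3 libraries allow. Quantile scaling, added after the data were seen, gave 0.091 for that difference.

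Lef1 is also a known target of its own family, and 1 of its RefSeq start sites carries the TCF/LEF core word. The 250 bases before that start (GRCm38.p6, chr3:131156044-131156293, plus strand, inside the gene and outside its annotated exons) hold the reverse complement of CTTTGA 2 times, 180 and 120 bases before the start, shown in capitals.
Lef1 internal start: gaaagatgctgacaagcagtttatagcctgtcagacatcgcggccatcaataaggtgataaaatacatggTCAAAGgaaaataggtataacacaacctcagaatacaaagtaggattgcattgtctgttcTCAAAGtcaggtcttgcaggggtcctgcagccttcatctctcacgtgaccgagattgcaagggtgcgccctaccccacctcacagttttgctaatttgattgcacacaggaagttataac
CTTTGA was present on either strand in 4 of the 20 windows available for 9 of the factors, and in 13.8% of all 32851 windows of 250 bases. A match is a description of letters, and which start sites were used in these cells was not analysed here.

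The T lineage factors Bcl11b and Satb1 differed from each other in how far they followed the T cell identity genes. Bcl11b (ENSMUSG00000048251, chromosome 12, 107910403 to 108003602, minus strand), a zinc finger factor needed for T lineage commitment, had 3479, 3059.5 and 3066 normalized counts in MCDHFD libraries, against 6244, 6137 and 6214 in ND libraries. The diets were far apart next to the narrow spread in each. Bcl11b averaged 3201 ± 240.1 in MCDHFD and 6198 ± 54.8 in ND (SD, n = 3 each), a log2 change of -0.96 (SE 0.06, limma adjusted p = 2.38e-06). Relative to the T cell identity genes the difference was 0.08, with a 95% interval of -0.03 to 0.20 (limma adjusted p = 0.161). Bcl11b thus differed little from the average of the T cell identity genes, although its MCDHFD values on that scale were all above its ND values.

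CTTTGA was also found 89 bases before a RefSeq start of Bcl11b (GRCm38.p6, chr12:108003486-108003515, minus strand), inside the gene, in a window of which 188 of 250 bases lie in annotated exons, and 30 bases around it are shown, with the word in capitals.
Bcl11b: agaggccaagcaCTTTGAagaagtgtgaga

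Satb1 (ENSMUSG00000023927, chromosome 17, 51736187 to 51833290, minus strand), an organiser of chromatin loops in T cells, had 6974, 5348 and 5541 normalized counts in MCDHFD libraries, against 9936, 7699.7 and 8078 in ND libraries. The groups did not overlap, and the spread inside ND was wide because ND replicate 1 was the highest. On the deposited scale Satb1 fell (log2 change -0.53, SE 0.12, limma adjusted p = 0.00489), and relative to the T cell identity genes it was higher by 0.51 (SE 0.10, limma adjusted p = 0.00101).

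Among the general lymphoid factors, Ets1 was lower on the deposited scale while Ikzf1 did not pass. Ets1 (ENSMUSG00000032035, chromosome 9, 32636221 to 32757820, plus strand), founder of the ETS family, had 12369, 10387 and 10296 normalized counts in MCDHFD libraries, against 15981, 16050.3 and 16010.5 in ND libraries. ND libraries were almost equal and all MCDHFD libraries lay below them. The log2 fold change was -0.54 (SE 0.07, limma adjusted p = 0.000258), and relative to the T cell identity genes Ets1 was higher by 0.49 (SE 0.05, limma adjusted p = 1.70e-05).

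Ikzf1 (ENSMUSG00000018654, chromosome 11, 11685003 to 11772926, plus strand) had 5592, 4706 and 5126 normalized counts in MCDHFD libraries, against 4856, 5007 and 5148 in ND libraries. The ND values fell inside the MCDHFD range. The log2 fold change of 0.04 had a 95% interval of -0.12 to 0.19 (limma adjusted p = 0.671), so a change of more than 0.19 in either direction lay outside that interval on the deposited scale. Relative to the T cell identity genes Ikzf1 was higher by 1.07 (SE 0.06, limma adjusted p = 1.55e-07), close to the 1.04 by which that scaling raised the median of all tested genes. Its relative Ikzf3 (AIOLOS), a factor of lymphocytes, was lower on the deposited scale (2268 ± 224 in MCDHFD and 4657 ± 164 in ND), a log2 fold change of -1.04, and its difference from the T cell identity genes was -0.00 (limma adjusted p = 0.949). The log2 ratio of Ikzf1 to Ikzf3 was 1.18 ± 0.07 in MCDHFD and 0.10 ± 0.08 in ND (SD, n = 3 each, exact permutation p = 0.1), without overlap.

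**Figure D2:**
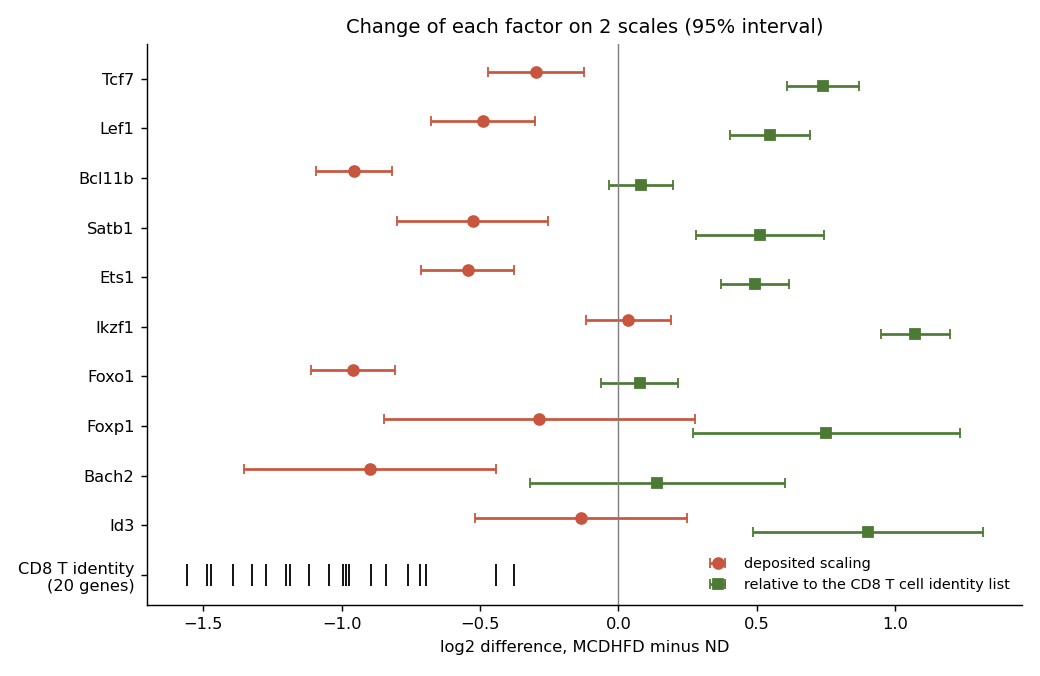
Log2 difference of MCDHFD minus ND for each factor with its 95% interval, on the deposited scale (red circles) and relative to the CD8 T cell identity genes of the same library (green squares); the black ticks are the deposited fold changes of the 20 identity genes, from -1.56 to -0.38. Bcl11b, Foxo1 and Bach2 fall among the identity genes on the deposited scale. Lef1, Satb1 and Ets1 lie within their range but above 18 of the 20, and Tcf7, Foxp1, Id3 and Ikzf1 lie above all 20 of them.

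The forkhead factors Foxo1 and Foxp1 gave a clear and an uncertain result. Foxo1 (ENSMUSG00000044167, chromosome 3, 52268336 to 52353221, plus strand) had 3405, 2937 and 3263 normalized counts in MCDHFD libraries, against 6433, 5896 and 6341 in ND libraries. The groups were far apart, and the MCDHFD mean was 51.4% of the ND mean. The log2 fold change was -0.96 (SE 0.07, limma adjusted p = 4.21e-06) on the deposited scale. Relative to the T cell identity genes the difference was 0.08, with a 95% interval of -0.06 to 0.22 (limma adjusted p = 0.258). Foxo3, a FOXO factor of many cell types, was lower by less on the deposited scale (log2 fold change -0.46), and higher relative to the identity genes (0.58). The log2 ratio of Foxo1 to Foxo3 was 1.01 ± 0.06 in MCDHFD and 1.51 ± 0.07 in ND (SD, n = 3 each, exact permutation p = 0.1), without overlap.

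Foxp1 (ENSMUSG00000030067, chromosome 6, 98925338 to 99522721, minus strand), which restrains activation of naive T cells, had 2928, 1458 and 1350.1 normalized counts in MCDHFD libraries, against 2131, 2296 and 2139 in ND libraries. MCDHFD replicate 1 was above every ND library and the other MCDHFD libraries were below every one. With all libraries Foxp1 stayed short of the threshold (log2 change -0.29, SE 0.25, limma adjusted p = 0.347), and without MCDHFD replicate 1 it fell (log2 fold change -0.64, limma adjusted p = 9.80e-05). The size of that library's departure from the other MCDHFD libraries, 1.06 on the log2 scale, ranked 16 among 5764 tested genes whose mean was 500 or more. Relative to the T cell identity genes Foxp1 was higher by 0.75 with that library (limma adjusted p = 0.00807) and by 0.45 without it.

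Bach2 (ENSMUSG00000040270, chromosome 4, 32238804 to 32586108, plus strand), a leucine zipper repressor that delays effector differentiation, had 1248, 1494 and 1003 normalized counts in MCDHFD libraries, against 1722, 2328 and 3013 in ND libraries. All MCDHFD values were below all ND values, and the ND libraries differed widely among themselves. On the deposited scale Bach2 fell, with a log2 change of -0.90 (SE 0.20, limma adjusted p = 0.00435), which ran from -1.10 to -0.70 as single libraries were left out. Relative to the T cell identity genes the difference was 0.14, with a 95% interval of -0.32 to 0.60 (limma adjusted p = 0.525). Bach1, which binds the same elements and represses haem and antioxidant genes, rose to 1114 ± 35.4 in MCDHFD, against 919.6 ± 66.1 in ND, and was higher on both scales (log2 fold change 0.28 deposited, 1.32 relative to the identity genes). The log2 ratio of Bach2 to Bach1 was 0.15 ± 0.30 in MCDHFD and 1.32 ± 0.50 in ND (SD, n = 3 each, exact permutation p = 0.1), without overlap. Macrophage genes, which include BACH1 targets such as Hmox1, were higher in the same libraries, and their part in this ratio was not tested.

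A window of Bach2 is the only one of the 20 in which core words of both TCF/LEF and ETS factors occur. In the 250 bases before that RefSeq start (GRCm38.p6, chr4:32417185-32417434, plus strand, inside the gene and outside its annotated exons), the reverse complement of CTTTGA stands 93 bases and that of the ETS word CCGGAAG 12 bases before the start, both in capitals.
Bach2: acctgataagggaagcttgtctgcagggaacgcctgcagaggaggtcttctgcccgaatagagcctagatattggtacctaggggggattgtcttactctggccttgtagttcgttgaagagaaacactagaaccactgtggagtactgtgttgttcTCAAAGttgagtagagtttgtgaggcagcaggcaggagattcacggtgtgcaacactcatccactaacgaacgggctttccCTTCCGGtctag
CCGGAAG was found on either strand in 2 of the 20 windows of the factors and in 6.91% of all windows. The forkhead word TGTTTAC was in 0 of the 20 and in 3.17% of all windows, and the E-box CAGCTG, the kind of site from which ID3 keeps E proteins, in 3 of the 20 and in 13.0% of all. The words do not overlap one another in the sequences shown. Ets1 had no window.

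Id3 (ENSMUSG00000007872, chromosome 4, 136143497 to 136145755, plus strand) was the factor with the fewest counts, at 146, 188 and 122 normalized counts in MCDHFD libraries, against 165, 149 and 180.1 in ND libraries. The groups overlapped. Its log2 fold change was -0.14, with a 95% interval of -0.52 to 0.25 (limma adjusted p = 0.515), and relative to the T cell identity genes it was higher by 0.90 (SE 0.18, limma adjusted p = 0.00113). Id2, the inhibitor of E proteins that dominates in effector T cells and is also used by macrophages, NK and dendritic cells, had 6885, 8034 and 7859.9 normalized counts in MCDHFD libraries, against 2915, 2884 and 2846 in ND libraries. Id2 was higher by 1.39 on the log2 scale with the deposited scaling and by 2.43 relative to the T cell identity genes. The log2 ratio of Id3 to Id2 was -5.65 ± 0.31 in MCDHFD and -4.12 ± 0.15 in ND (SD, n = 3 each), a 2.89-fold lower ratio in MCDHFD (exact permutation p = 0.1). Macrophage genes rose in the same libraries, and their part in the Id2 value was not tested.

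**Figure D3:**
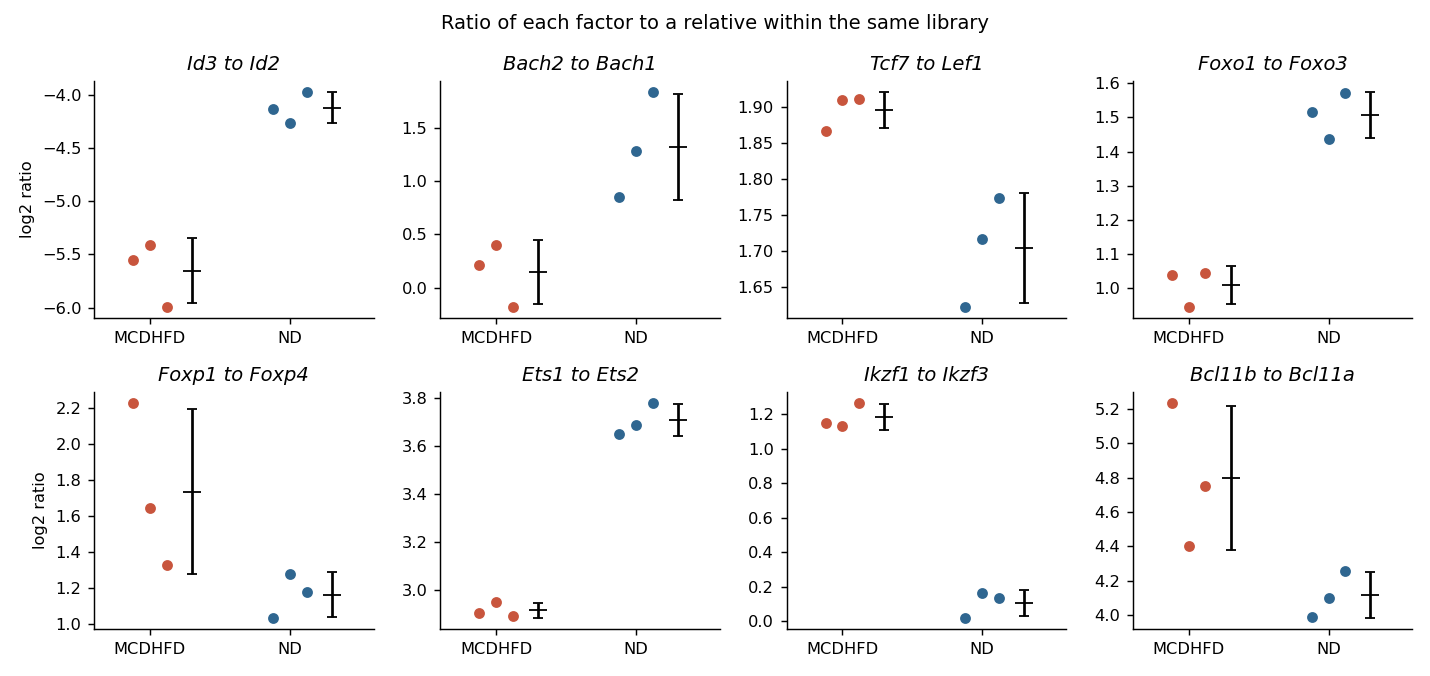
Log2 ratio of each factor to a fixed relative within the same library (points), with the mean and SD of each diet, MCDHFD in red and ND in blue; axes do not start at 0. The diets are apart in each of the 8 pairs shown, with Id3 to Id2 at -5.65 in MCDHFD and -4.12 in ND and Ikzf1 to Ikzf3 at 1.18 in MCDHFD and 0.10 in ND.

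The 8 pairs reported did not overlap between diets, and none could pass (adjusted p = 0.113 for each, over the 9 exact permutation tests that were run). A non-overlap of single genes was found in 65.4% of all tested genes. The ratio of Ets1 to Ets2 was 2.92 ± 0.03 in MCDHFD and 3.71 ± 0.07 in ND on the log2 scale. The ratios of Foxp1 to Foxp4 (1.73 ± 0.46 in MCDHFD, 1.16 ± 0.12 in ND) and of Bcl11b to Bcl11a (4.80 ± 0.42 in MCDHFD, 4.12 ± 0.13 in ND) ran the other way, and for Foxp1 to Foxp4 the difference of 0.57 was 0.32 without MCDHFD replicate 1. Bcl11a, a factor of B cells and plasmacytoid dendritic cells, was lower on both scales (log2 fold change -1.64 deposited, -0.60 relative to the identity genes), in libraries where B and dendritic cell genes were lower.

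Per kilobase of annotated exon, the factors spanned a wide range of levels. Tcf7 stood highest, at 6032 ± 596 normalized counts per kilobase in MCDHFD and 7398 ± 297 in ND (SD, n = 3 each). Ets1 was the next, at 1300 ± 138 in MCDHFD and 1889 ± 4.09 in ND, and then Ikzf1 at 890.0 ± 76.8 in MCDHFD and 866 ± 25.3 in ND. Bcl11b (395 in MCDHFD, 764 in ND), Foxo1 (369 in MCDHFD, 718 in ND) and Lef1 (485 in MCDHFD, 678 in ND) lay close together in ND. In MCDHFD, Lef1 had the highest mean of these 3. Satb1 (313 in MCDHFD, 450.5 in ND), Bach2 (126 in MCDHFD, 237 in ND), Foxp1 (139 in MCDHFD, 159 in ND) and Id3 (84.8 in MCDHFD, 92.0 in ND) were the lowest. The exon lengths come from an annotation that may not be the authors', so these levels are approximate.

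The likeness of the factors' profiles across the 6 libraries was measured as the root mean square difference of their mean-centred log2 values. The difference between diets was left in, so genes come out close only where their fold changes are near equal (Foxo1 -0.96, Bcl11b -0.96). The measure therefore largely restates the fold changes given above. Foxo1 and Bcl11b were the closest pair at 0.0556, Lef1 and Ets1 the next at 0.0598, and Lef1 and Satb1 the third at 0.0859. Outside the list, Kif21b, Mdc1 and Chd7 were nearest to Tcf7 (0.0226 to 0.0301), and Ptprc, Srebf2 and Lyst nearest to Lef1 (0.0253 to 0.0339), with the search limited to means of 500 or more. Within MCDHFD, replicate 1 had the highest value of 8 of the 10 factors and also the highest mean of the T cell identity genes (11.41 on the log2 scale, against 11.25 and 11.28 in the other MCDHFD libraries). How often replicate 1 was highest over all tested genes was not counted. Replicate 1 had the lowest macrophage share of its diet (2.90%, against 3.51% and 3.48%). Its erythroid, neutrophil, plasma cell, B cell and dendritic cell shares were also the lowest, and its NK cell share was the highest.

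**Figure D4:**
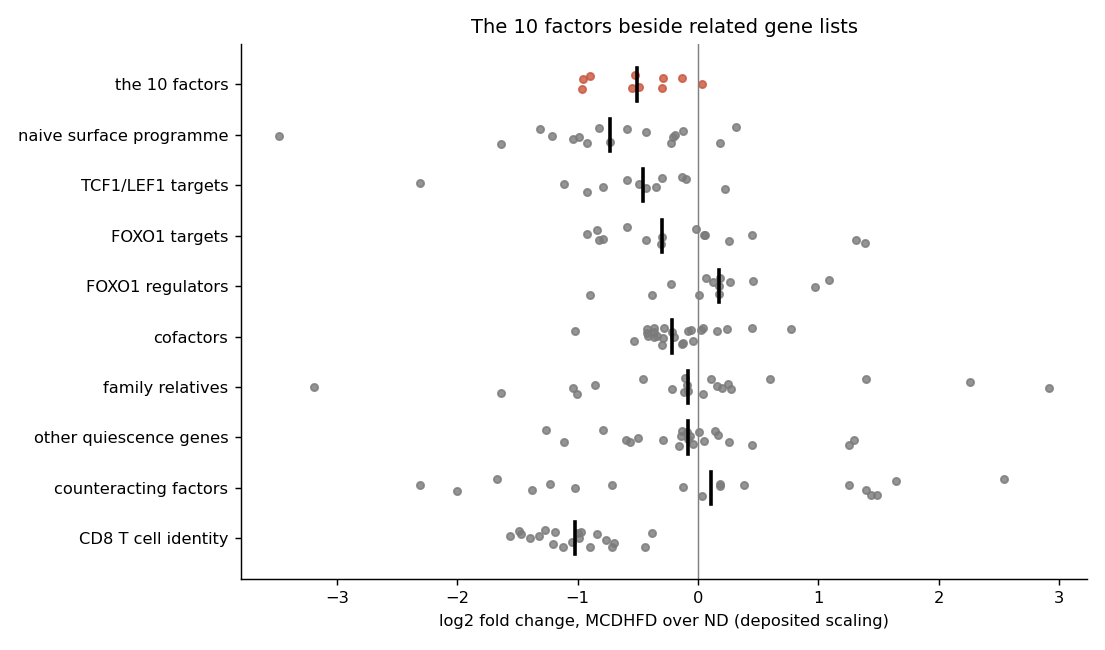
Log2 fold change of MCDHFD over ND on the deposited scale for the 10 factors (red) and the tested genes of related lists (grey), 1 point per gene, with the median of each list as a black bar. The median is -0.51 for the factors, -0.73 for the naive surface programme and -1.02 for CD8 T cell identity, and lies at or near 0 for the family relatives, other quiescence genes and counteracting factors; relative to the identity genes the medians of the factors and of the 8 related lists are all above 0.

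Of 17 genes of the naive surface programme, 13 were lower and 2 higher on the deposited scale (median log2 fold change -0.73), and 3 were lower and 10 higher relative to the T cell identity genes (median 0.31, against 1.04 for all tested genes). Over all tested genes 28.1% were lower and 30.3% higher on the deposited scale, and 3.25% lower and 83.9% higher on the other. Lower on both scales were Ccr9, a homing receptor, with 184 ± 33.4 normalized counts in MCDHFD and 2044 ± 127 in ND (log2 fold change -3.48), Dapl1 (-1.64) and Cd27, a costimulatory receptor (-1.31). Tdrp was lower on the deposited scale only (-1.21), and its difference from the identity genes was -0.18 (limma adjusted p = 0.072).

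Of 15 FOXO1 targets, 7 were lower and 4 higher (median log2 fold change -0.30), beside 28.1% lower and 30.3% higher over all genes, and 14 were higher relative to the identity genes, near the 83.9% of all genes. Sesn3, a stress-induced inhibitor of mTOR signalling, was lower on the deposited scale (-0.84) and higher relative to the identity genes (0.20). Pik3ip1, an inhibitor of PI3 kinase, was higher on both scales (4993 ± 833 in MCDHFD and 1889 ± 134 in ND, log2 fold change 1.39), as was the autophagy gene Gabarapl1 (1.32).

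Of 13 regulators of FOXO1, 7 were higher and 3 lower (median log2 fold change 0.17), beside 30.3% higher and 28.1% lower over all genes. Relative to the identity genes 12 were higher, near the 83.9% over all genes. The kinases that expel FOXO1 from the nucleus included Sgk1, at 3313 ± 3.93 normalized counts in MCDHFD and 1556 ± 23.2 in ND (log2 fold change 1.09), and Akt1, at 4353 ± 111 in MCDHFD and 2223 ± 126 in ND (0.97), both higher on both scales. Pik3r1, a regulatory subunit of PI3 kinase, was higher on both scales (0.46 deposited). Phosphorylation and nuclear location of FOXO1 were not measured.

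Of 12 tested TCF1 and LEF1 targets, 9 were lower and none higher on the deposited scale (median log2 fold change -0.46), where 3 of the 12 are themselves among the 10 factors. Over all tested genes 28.1% were lower on that scale. Relative to the identity genes 9 were higher and 1 lower, beside 83.9% and 3.25% over all genes. The one lower on both scales was Eomes, a factor of memory CD8 T cells and NK cells, with 158 ± 10.6 normalized counts in MCDHFD and 791 ± 52.2 in ND (log2 fold change -2.31). Myb (-1.11) and Bcl6 (-0.79), a repressor that opposes effector fate, were lower on the deposited scale, and Bcl6 was higher relative to the identity genes (0.25) while Myb, a factor of progenitors and memory cells, did not pass (-0.07, limma adjusted p = 0.366).

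Cofactors of the 10 factors were lower in 13 of 25 and higher in 3 (median log2 fold change -0.22), where 28.1% of all tested genes were lower and 30.3% higher. Relative to the identity genes 24 of 25 were higher, beside 83.9% of all genes. Tle2 (-1.03) and Tle4 (-0.53), corepressors of TCF1 and LEF1, were lower on the deposited scale, and relative to the identity genes Tle4 was higher (0.51) and Tle2 was at 0.01 (limma adjusted p = 0.958). Mafg, a small MAF partner of BACH factors (0.77), and Runx1, a partner of ETS1 (0.45), were higher on both scales.

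Family relatives went both ways, with 6 of 21 tested genes higher and 6 lower (median log2 fold change -0.08), near the 30.3% and 28.1% over all genes. Relative to the identity genes 16 were higher and 2 lower, beside 83.9% and 3.25% over all genes. The 2 lower on both scales were Bcl11a and Ikzf2 (HELIOS, found in regulatory T cells), which had 44.4 ± 41.3 normalized counts in MCDHFD and 317 ± 52.4 in ND. Higher on both scales were Id1 (680.2 ± 198 in MCDHFD, 89.3 ± 24.8 in ND) and Tcf7l2, the TCF family member TCF4 of WNT signalling (1015 ± 190.2 in MCDHFD, 208 ± 17.6 in ND). Tcf7l2 therefore rose while Tcf7 and Lef1 fell on the deposited scale and all 3 were higher relative to the identity genes, in libraries where macrophage and erythroid genes were higher, and the part of those cells in it was not tested.

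Other quiescence genes were higher in 5 of 22 tested and lower in 7 (median log2 fold change -0.08), near the 30.3% and 28.1% over all genes, and 20 were higher relative to the identity genes, near 83.9% over all genes. Klf4 (1.26), a repressor of T cell proliferation that macrophages also express, and Dusp6 (1.30), a phosphatase that limits ERK signalling, were higher on both scales. Gfi1, a zinc finger repressor, was lower on the deposited scale (-1.26), and its difference from the identity genes was -0.23 (limma adjusted p = 0.170).

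Factors that oppose the naive state were higher in 8 of 18 and lower in 7 (median log2 fold change 0.11), beside 30.3% and 28.1% over all genes, and relative to the identity genes 12 were higher and 3 lower, beside 83.9% and 3.25%. Besides Eomes, the effector factor Tbx21 (T-BET), with 91.2 ± 32.3 normalized counts in MCDHFD and 355 ± 35.0 in ND, and Irf4, a factor of activated lymphocytes (log2 fold change -1.67), were lower on both scales. Klf10, a TGF-beta-induced factor, was higher on both (1253 ± 83.2 in MCDHFD and 217 ± 41.2 in ND, log2 fold change 2.54).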

How the data were processed

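RNA of splenic CD8+ T cells was sequenced from 3 MCDHFD and 3 ND libraries, for which the labels' protocols name 1 kit for whole RNA and 1 for mRNA without assigning them. The deposited table holds a signal, read counts that the authors divided by 1 factor per library, per the file headers and the values. The genome build was mm10, as the submitters' processing notes have it. The sources used here give no aligner, counter, strand setting or annotation, so overlapping and antisense genes cannot be told apart. Symbols matched 19202 genes; coordinates and exon lengths come from GENCODE M21, promoters from RefSeq on GRCm38.p6.

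Genes with a mean of at least 10 were tested (13430) with limma 3.58.1 in R 4.3.3, with an intensity trend, on log2 of the value plus 1, with Benjamini-Hochberg adjustment at 0.05. Fold changes are on that scale. Relative values hold the mean log2 of 20 T cell identity genes equal in all libraries. Whole reads were recovered in 5 libraries (100% of values, tolerance 0.01; 13188812 to 15482458 reads; the sixth, ND replicate 3, was kept out) for edgeR 4.0.16 and DESeq2 1.42.0. Pairs of libraries of 1 diet differed by more than sampling noise (chi-square per degree of freedom 6.46 to 12.3).

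The 10 factors and all gene lists were chosen with earlier results of these data known. Named genes are the 10 factors, up to 4 passing genes of each list by size of change with a mean of at least 50, the paired relatives, the 3 most abundant of each marker list (not printed singly) and the 3 genes nearest to Tcf7 and to Lef1. Of the genes so named, 3 and the results that need them, 1 of the 9 pairs included, are not reported here.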

Additional observations from a re-analysis of the deposited data

How the results depend on the processing

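The count of 7 lower and 0 higher factors was the same with pseudocounts of 0.5 and 5, no filter or a filter at a mean of 100, TMM, median-of-ratios and quantile scaling, library quality weights, edgeR and DESeq2 on 5 libraries, and was 7 to 8 lower as each library was left out, the added factor being Foxp1 without MCDHFD replicate 1. With the T cell identity list held equal, 437 genes were lower and 11265 higher, and 0 factors were lower and 7 higher. With the CD3 complex genes, a part of that list, held equal, 484 were lower and 11035 higher, and 0 factors were lower and 7 higher. Those scalings moved the median of all tested genes by 1.04 and 0.98. The values that changed sign became, with the identity list and with the CD3 complex held equal, 0.74 and 0.68 for Tcf7, 0.55 and 0.48 for Lef1, 0.14 and 0.078 for Bach2, 0.51 and 0.45 for Satb1, 0.077 and 0.014 for Foxo1, 0.75 and 0.69 for Foxp1, 0.90 and 0.84 for Id3, 0.49 and 0.43 for Ets1, and 0.082 and 0.018 for Bcl11b; the change of sign follows from the fall of those T cell genes. Ikzf1, which did not pass on the deposited scale, passed under both at 1.07 and 1.01. At a change of at least 2-fold, 1029 genes were lower and 1756 higher, and 0 factors. Leaving out single libraries gave 3308 to 3712 lower and 3644 to 3965 higher genes. With the replicate number as a block there were 3697 lower and 4010 higher genes and 7 lower factors. The numbers are not known to pair animals: deviations of same-numbered libraries correlated at 0.0365, 0.0621 and 0.00572, and 5 of 6 libraries were closest to their own number. Relative to the identity list, Bach2 ranged from -0.06 to 0.34 as libraries were left out, and did not pass. With 3 libraries per diet, the intervals of Foxp1, Bach2 and Id3 are wide. Quantile scaling, an alternative chosen after seeing the data for the ratios, kept the direction of the 8 ratios reported and moved that of Tcf7 to Lef1 to 0.091; the cause was not tested.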
